A study of Mus musculus with 9 samples.

Results

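The mitosis genes are 32 genes whose products drive entry into mitosis, build the spindle, hold chromosomes to it and divide the cell. They were chosen by symbol, and all probe sets that the platform annotation ties to those symbols were taken. For 31 of the 32 the annotation named at least 1 probe set, 70 probe sets in all, out of 18193 genes and 34945 probe sets with a single gene symbol. The expression of Ccnb1, the gene of cyclin B1, is not analysed here. Expression was measured on 9 Affymetrix mouse arrays at embryonic day 16.5: 3 of condyle (the rounded end of the mandible in the temporomandibular joint), 3 of fossa (the hollow of the temporal bone that receives it) and 3 of whole body. The labels tell the groups apart by tissue alone, describe every sample as laser-captured from fresh frozen embryos, and name no strain, genotype or other treatment. The samples are called biological triplicates, and their embryos are not named. The p-values cover no more than the spread among these samples.

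Cdk1 bound to cyclins A and B drives cells into mitosis, and they leave it when the anaphase-promoting complex, an E3 ubiquitin ligase switched on by Cdc20 and served by Ube2c, marks cyclins and other proteins for destruction. In between, Aurora and Polo kinases organise the spindle, the checkpoint holds the cell until every kinetochore is attached, and the central spindle places the cleavage furrow. Most of these genes are transcribed late in the cell cycle, under the MuvB core complex with B-Myb and FoxM1, or kept silent in resting cells by the same core within the DREAM complex. Their messages are therefore widely used as a sign of dividing cells. In the embryonic jaw the condyle grows by dividing progenitors at its surface that feed a cartilage beneath.

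The promoters of these genes are shown first, because the element through which MuvB binds, the cell cycle genes homology region or CHR, is read directly from the letters. Promoter windows from RefSeq (build GRCm38.p6), 250 bases before to 50 after the gene start, were found for 28 of the 32 symbols, in 30 windows, since Ect2 and Prc1 had 2 overlapping ones each. Aurkb, Ccna2, Kif20a and Tpx2 had none in the table. The CHR was searched as TTTGAA or TTCGAA, the CCAAT box as CCAAT and an E2F site as TTCCCGC or TTGGCGC, on both strands. An E2F site and a CCAAT box can share letters, as they do in Ect2, and such letters counted for both. The following 30-base stretches, 5′ to 3′ on the strand of the gene, surround the CHR match nearest the start, in capitals, for 8 genes that were higher in condyle than in fossa. They are the 8 with the largest such difference among 12 with a match within 50 bases of the start.
Ube2c: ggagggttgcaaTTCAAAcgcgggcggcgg
Racgap1: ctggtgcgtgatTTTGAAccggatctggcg
Plk1: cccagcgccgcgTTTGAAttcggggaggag
Prc1: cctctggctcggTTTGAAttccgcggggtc
Cenpa: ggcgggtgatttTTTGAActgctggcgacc
Bub1b: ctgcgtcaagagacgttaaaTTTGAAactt
Top2a: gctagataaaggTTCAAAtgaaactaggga
Anln: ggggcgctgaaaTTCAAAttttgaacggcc
The stretches lie at chr2:164769888-164769917 (plus strand) for Ube2c, chr15:99651634-99651663 (minus strand) for Racgap1, chr7:122159453-122159482 (plus strand) for Plk1, chr7:80294434-80294463 (plus strand) for Prc1, chr5:30666890-30666919 (plus strand) for Cenpa, chr2:118598231-118598260 (plus strand) for Bub1b, chr11:99024195-99024224 (minus strand) for Top2a, chr9:22389168-22389197 (minus strand) for Anln.

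A CHR match stood within 50 bases of the start in 24 of the 30 member windows (80.0%), against 5.31% of all 32851 windows in the table. A CCAAT box was found in 26 of 30 (86.7%, against 37.4%), and 18 of 30 held at least 2 (60.0%, against 11.7%). An E2F site was found in 5 of 30 (16.7%, against 6.81%). CHR and CCAAT box occurred together in 23 of 30 windows (76.7%, against 7.53%). Nusap1, Birc5, Cenpe, Nek2 and Ccnb1 had no CHR match in their windows.

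Ube2c, which encodes the ubiquitin-conjugating enzyme of the anaphase-promoting complex, carries the most CCAAT matches together with Top2a, 6 each. Its 250 bases before the start (chr2:164769679-164769928, plus strand, GRCm38.p6) are shown for their row of CCAAT boxes ahead of a CHR, both in capitals; a CCAAT box on the opposite strand reads ATTGG, and TTCAAA is a CHR on the opposite strand.
Ube2c: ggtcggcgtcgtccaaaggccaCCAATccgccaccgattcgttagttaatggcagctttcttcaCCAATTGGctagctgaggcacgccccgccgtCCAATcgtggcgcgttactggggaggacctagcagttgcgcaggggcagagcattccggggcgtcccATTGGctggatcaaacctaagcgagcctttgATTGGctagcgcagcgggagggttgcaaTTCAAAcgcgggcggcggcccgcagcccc
The same stretch of Plk1 (chr7:122159185-122159434, plus strand) is shown as the gene whose difference between condyle and fossa passed the test as deposited and after quantile normalization, with the limits given below. It holds 1 CCAAT box, in capitals, and its CHR lies after the start, as given above.
Plk1: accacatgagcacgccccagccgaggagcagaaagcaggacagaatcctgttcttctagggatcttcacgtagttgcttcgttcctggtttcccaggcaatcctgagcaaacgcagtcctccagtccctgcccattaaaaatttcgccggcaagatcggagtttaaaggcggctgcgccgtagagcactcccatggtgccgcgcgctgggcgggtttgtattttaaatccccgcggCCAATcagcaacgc
A match is a run of letters and was not tested as a binding site.

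**Figure D1:**
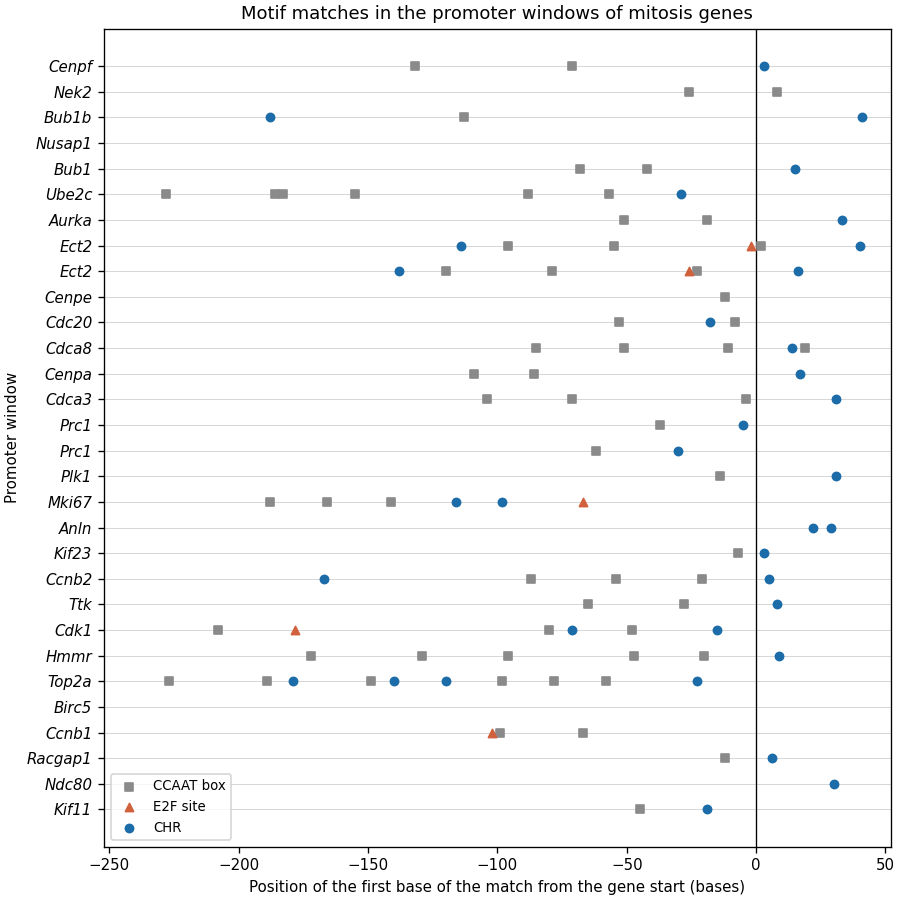
Positions of CHR (circles), CCAAT box (squares) and E2F site (triangles) matches in the 30 promoter windows of the mitosis genes, by the distance in bases of the first base of each match from the gene start. The CHR matches gather around the start, with 24 of 30 windows holding one within 50 bases, and the CCAAT boxes mostly lie upstream of them.

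Levels are log2 intensities as deposited, and a gene is represented by its brightest probe set. The background limit of an array was set at the brightest of its 27 Bacillus subtilis control probe sets. Of the 31 genes, 28 were above it on all 9 arrays. Aurka, which encodes Aurora kinase A, was above background on 2 condyle arrays and on no other. Its values are therefore not described further, though it enters the counts and medians of the 31. The condyle mean was the highest of the 3 groups for 24 genes, the whole body mean for 6 and the fossa mean for 1, while the fossa mean was the lowest for 26. The order condyle, whole body, fossa held for 20 of the 31.

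The arrays were not on a fully common scale, and this touches every count below. The 75th percentile of log2 intensity was 4.81 to 4.90 on the condyle arrays, 4.03 to 4.29 on the fossa arrays and 4.35 to 4.54 on the whole body arrays. The share of probe sets above background was 45.4% to 46.9%, 30.3% to 43.8% and 37.4% to 45.9% in the same order. The main counts and medians are therefore given as deposited and after quantile normalization, which forces the same distribution on every array. The 3′ minus 5′ log2 signal of Gapdh, a sign of RNA quality, was 5.33 to 6.86 in condyle, 3.69 to 5.31 in fossa and 5.34 to 6.52 in whole body, with fossa array 1 lowest. A control probe set for 18S ribosomal RNA read 5.90 to 9.66 in condyle, 7.30 to 9.75 in fossa and 14.27 to 14.42 in whole body. In this control the whole body arrays stood apart from both joint tissues. Its bearing on the comparisons with whole body was not tested. The joint tissues carried cartilage markers: the log2 of the summed signal of 13 chondrocyte genes was 13.45 to 14.40 in condyle and 13.21 to 14.73 in fossa, against 9.82 to 9.95 in whole body. Of the 13, 11 were higher than in whole body in each joint tissue (9.34% of all genes in condyle and 3.99% in fossa). Of 7 bone markers 1 was higher in condyle and 3 in fossa than in whole body, and none was at background in any group. With 7 genes, the 1 in condyle does not stand apart from the 9.34% of all genes.

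**Figure D2:**
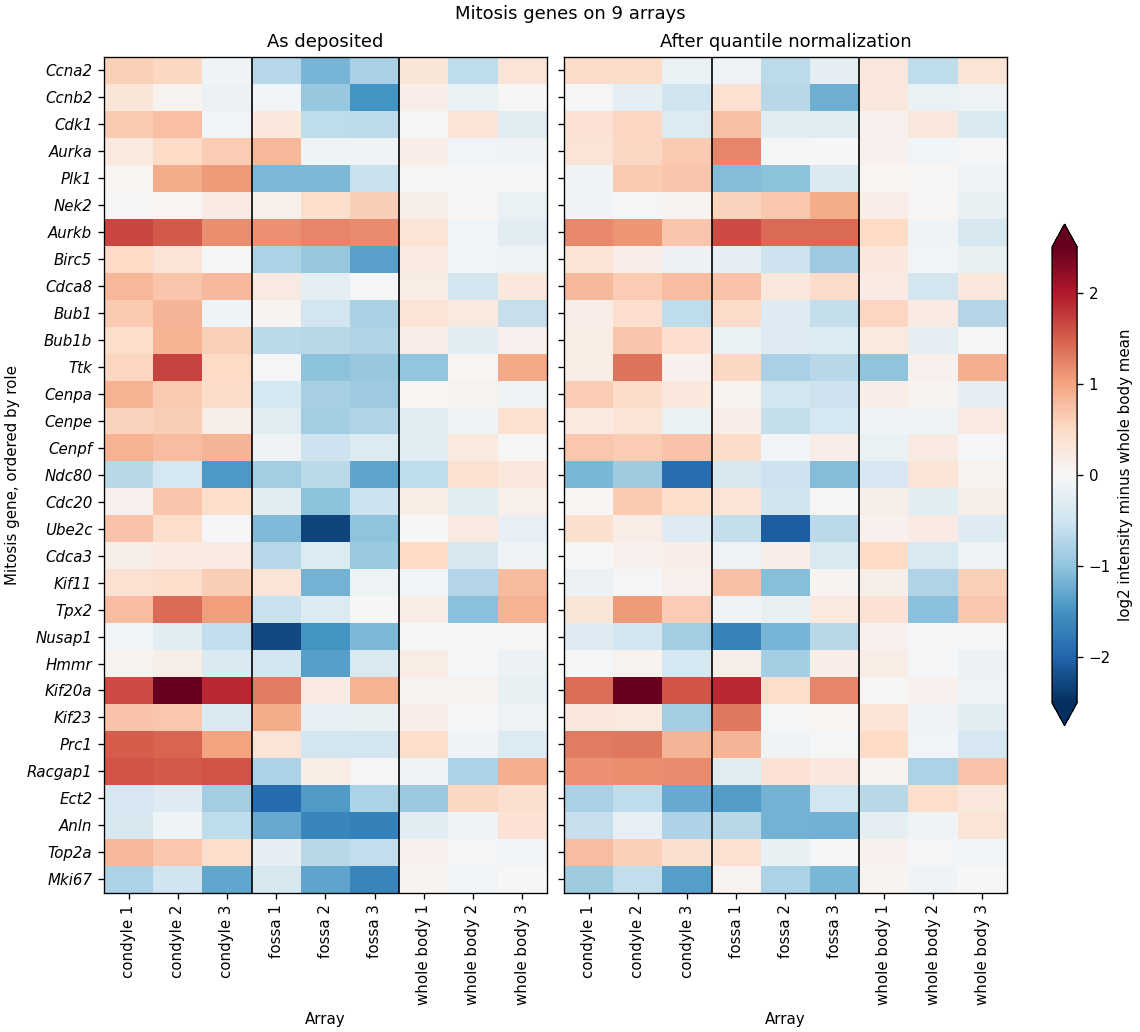
Each cell is the log2 intensity of a mitosis gene on 1 array minus its mean over the 3 whole body arrays, as deposited (left) and after quantile normalization (right), with genes ordered by role; colours saturate at 2.5. Fossa columns are mostly blue as deposited and much paler after quantile normalization, while the rows of Aurkb and Kif20a stay red in both joint tissues.

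The comparison of condyle with fossa asks whether the head and the socket of the joint differ in mitotic transcripts. As deposited, 16 of the 31 genes were higher in condyle (51.6%), where 16.8% of all 18193 genes were (limma, Benjamini-Hochberg adjusted p under 0.05). None was lower, where 2.13% of all genes were. At an unadjusted p under 0.05 (limma) 23 of the 31 were higher and none lower. At that level 5232 of all 18193 genes were higher and 870 lower. Of the 7751 genes above background on every array, 3559 were higher and 86 lower there. Of the 7751 genes above background on every array, 26.5% were called higher and 0.41% lower. The median log2 difference of the 31 was 1.09, against 0.21 over all genes and 0.64 over the 7751 genes above background on every array. In 21 of the 31 genes all condyle arrays lay above all fossa arrays, which held for 33.9% of all genes, and in 0 all lay below (15.8% of all genes). Of the 7751 genes above background, 3743 had all condyle arrays above and 99 all below. After quantile normalization the median difference of the 31 was 0.43, against -0.01 over all genes and -0.02 over the genes above background. There 26 of the 31 still lay above 0, as did 8862 of all 18193 genes and 3751 of the 7751 above background. But only Plk1 was called higher (3.8% of all genes, 1.78% of those above background) and only Nek2 lower (2.67% and 1.86%). The other 4 genes below 0 there were Aurkb, Ndc80, Kif23 and Mki67, all above 0 as deposited. By arrays, 9 had all condyle arrays above all fossa arrays (17.8% of all genes), and 2, Nek2 and Aurkb, had all below (17.7%). Of the 7751 genes above background, 874 had all above and 882 all below there. Because tissue pieces were measured in bulk, fewer dividing cells and less of each message per dividing cell cannot be told apart.

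Among the checkpoint genes, Bub1b, which encodes the BubR1 protein of the mitotic checkpoint complex, read 8.20, 8.63 and 8.35 in condyle, 7.08, 7.05 and 7.0 in fossa and 7.92, 7.49 and 7.85 in whole body. The fossa arrays lay close together and under every other array. The difference between condyle and fossa was 1.35 ± 0.15 (SE; adjusted p = 0.00216), or 2.55-fold, and 0.70 ± 0.17 (adjusted p = 0.0564) after quantile normalization. Bub1, a checkpoint kinase at the kinetochore, differed by 0.87 ± 0.37 (adjusted p = 0.145). Ttk, the kinase also called Mps1, differed by 1.58 ± 0.57 (adjusted p = 0.0992), with all condyle arrays above all fossa arrays.

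Of the 4 kinetochore and centromere genes 3 were higher in condyle. Cenpa, the histone H3 variant that marks centromeres, read 8.58, 8.36 and 8.17 in condyle, 7.27, 6.88 and 6.79 in fossa and 7.76, 7.78 and 7.57 in whole body. The 3 groups did not overlap, with whole body in the middle, and the difference between condyle and fossa was 1.39 ± 0.16 (adjusted p = 0.00251; 0.75 ± 0.19 with adjusted p = 0.068 after quantile normalization). Cenpf, a large protein of the outer kinetochore, read 8.98, 8.88 and 8.95 in condyle, 8.03, 7.58 and 7.77 in fossa and 7.83, 8.35 and 8.14 in whole body. Here condyle stood above both other groups, which overlapped, and it was 1.14 ± 0.16 above fossa (adjusted p = 0.00485; 0.49 ± 0.15 with adjusted p = 0.113 after quantile normalization). Cenpe, a kinetochore kinesin, read 7.80, 7.83 and 7.36 in condyle against 6.91, 6.34 and 6.46 in fossa and 6.94, 7.12 and 7.59 in whole body, and was 1.09 ± 0.23 higher in condyle than in fossa (adjusted p = 0.0195; 0.43 ± 0.23 with adjusted p = 0.354 after quantile normalization). Ndc80, whose product binds microtubules at the kinetochore, differed by 0.10 ± 0.36 (adjusted p = 0.885; -0.64 ± 0.33 with adjusted p = 0.33 after quantile normalization) and had its highest mean in whole body, 6.38 ± 0.55 (SD, n = 3) against 5.53 ± 0.51 in condyle and 5.43 ± 0.33 in fossa.

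All 3 genes of mitotic ubiquitination were higher in condyle. Ube2c read 8.03, 7.77 and 7.29 in condyle, 6.22, 5.01 and 6.32 in fossa and 7.31, 7.54 and 7.12 in whole body. Fossa lay apart below both others, and the difference from condyle, 1.85 ± 0.37 (adjusted p = 0.0163), was the largest of the 31 as deposited, with 1.20 ± 0.42 (adjusted p = 0.157) after quantile normalization. Cdc20, the activator of the anaphase-promoting complex, read 10.77, 11.36 and 11.10 in condyle, 10.39, 9.64 and 10.13 in fossa and 10.84, 10.35 and 10.79 in whole body, a difference between condyle and fossa of 1.02 ± 0.24 (adjusted p = 0.0282; 0.43 ± 0.25 with adjusted p = 0.404 after quantile normalization). Cdca3, an adaptor in the destruction of the mitosis inhibitor Wee1, was higher by 0.86 ± 0.24 (adjusted p = 0.0467; 0.21 ± 0.24 with adjusted p = 0.695 after quantile normalization).

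Among the kinases, Plk1, the Polo-like kinase of spindle poles and kinetochores, read 3.83, 4.72 and 4.86 in condyle, 2.67, 2.67 and 3.24 in fossa and 3.81, 3.80 and 3.76 in whole body. Only 1 of the fossa arrays was above background, so the fold is a bound: Plk1 was at least 2.38-fold higher in condyle (adjusted p = 0.0108 as deposited and 0.0427 after quantile normalization). With genes at background left out of the quantile-normalized fit, the adjusted p was 0.0581 for Plk1 and 0.0635 for Nek2, so neither call held there. With every value raised to a common floor at the highest background limit, as deposited, Plk1 differed by 0.95 ± 0.25 (adjusted p = 0.0704) and was not called. Nek2, a centrosome kinase, was the only gene with its highest mean in fossa. It read 3.56, 3.63 and 3.77 in condyle, 3.71, 4.01 and 4.19 in fossa and 3.72, 3.60 and 3.42 in whole body, above background on all 9 arrays. Condyle and fossa overlapped as deposited. The difference between condyle and fossa was -0.32 ± 0.14 (adjusted p = 0.162) as deposited and -0.73 ± 0.12 (adjusted p = 0.0164) after quantile normalization.

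In the chromosomal passenger complex, which carries Aurora B to centromeres and then to the central spindle, Birc5 and Cdca8 were higher in condyle. Birc5, which encodes survivin, read 8.75, 8.57 and 8.26 in condyle, 7.45, 7.29 and 6.88 in fossa and 8.45, 8.17 and 8.11 in whole body. All fossa arrays lay under every other array, and the difference from condyle was 1.32 ± 0.19 (adjusted p = 0.00555; 0.68 ± 0.21 with adjusted p = 0.115 after quantile normalization). Cdca8, the gene of borealin, was higher by 0.80 ± 0.21 (adjusted p = 0.0373; 0.24 ± 0.21 with adjusted p = 0.583 after quantile normalization). Aurkb, the gene of the Aurora B kinase, differed by 0.27 ± 0.19 (adjusted p = 0.371) as deposited and by -0.49 ± 0.24 (adjusted p = 0.313) after quantile normalization, so its sign depended on the scaling.

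In the spindle group 1 of 4 genes was called. Nusap1, which bundles microtubules around chromosomes, read 7.87, 7.67 and 7.31 in condyle, 5.68, 6.44 and 6.82 in fossa and 7.95, 7.90 and 7.95 in whole body, and was 1.31 ± 0.28 higher in condyle than in fossa (adjusted p = 0.0214; 0.61 ± 0.25 with adjusted p = 0.217 after quantile normalization). Tpx2, an activator of Aurora A on the spindle, differed by 1.37 ± 0.46 (adjusted p = 0.0827), Kif11, the kinesin that pushes spindle poles apart, by 0.80 ± 0.48 (adjusted p = 0.295), and Hmmr, a spindle pole protein that also binds hyaluronan, by 0.70 ± 0.28 (adjusted p = 0.13). In all 3 the condyle arrays lay above the fossa arrays as deposited, and after quantile normalization they did so for Tpx2. Of the cyclins and their kinase, Ccna2, the gene of cyclin A2, was higher by 1.23 ± 0.31 (adjusted p = 0.0337), at 9.70 ± 0.38 (SD, n = 3) against 8.47 ± 0.23. After quantile normalization it differed by 0.59 ± 0.32 (adjusted p = 0.352). Ccnb2, the gene of cyclin B2, differed by 0.92 ± 0.34 (adjusted p = 0.102) and Cdk1 by 0.78 ± 0.33 (adjusted p = 0.144), each with an overlap of 1 fossa array.

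Of the 6 genes of central spindle and cytokinesis 3 were higher in condyle. Prc1, which crosslinks the microtubules of the central spindle, read 9.22, 9.17 and 8.71 in condyle, 8.03, 7.22 and 7.22 in fossa and 8.14, 7.61 and 7.36 in whole body, a difference of 1.54 ± 0.30 from fossa (adjusted p = 0.0145; 0.91 ± 0.33 with adjusted p = 0.174 after quantile normalization). Racgap1, a subunit of the centralspindlin complex, stood at 7.42 ± 0.02 (SD, n = 3) in condyle and 5.67 ± 0.52 in fossa, a difference of 1.74 ± 0.44 (adjusted p = 0.0332; 1.06 ± 0.37 with adjusted p = 0.158 after quantile normalization). Anln, which encodes the scaffold anillin of the contractile ring, read 8.55, 8.83 and 8.31 in condyle, 7.69, 7.32 and 7.25 in fossa and 8.66, 8.86 and 9.31 in whole body, and was 1.14 ± 0.22 above fossa (adjusted p = 0.0136; 0.50 ± 0.22 with adjusted p = 0.25 after quantile normalization). Kif20a, a kinesin of the central spindle, differed by 1.42 ± 0.43 (adjusted p = 0.0587) with no overlap as deposited. Ect2, the exchange factor that activates RhoA at the furrow, differed by 0.84 ± 0.45 (adjusted p = 0.242), and Kif23, the kinesin of centralspindlin, by 0.17 ± 0.39 (adjusted p = 0.817; -0.55 ± 0.46 with adjusted p = 0.563 after quantile normalization).

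The chromosome genes were split. Top2a, the topoisomerase that untangles sister chromatids, read 10.94, 10.77 and 10.53 in condyle, 9.88, 9.40 and 9.49 in fossa and 10.21, 10.06 and 10.03 in whole body. The groups did not overlap, and condyle was 1.16 ± 0.15 above fossa (adjusted p = 0.00427; 0.54 ± 0.16 with adjusted p = 0.113 after quantile normalization). Mki67, the gene of the Ki-67 protein that coats mitotic chromosomes, read 11.01, 11.31 and 10.51 in condyle and 11.41, 10.49 and 10.15 in fossa. These overlapped, with a difference of 0.26 ± 0.34 (adjusted p = 0.649; -0.34 ± 0.33 with adjusted p = 0.626 after quantile normalization). Adding a constant to a whole array moves the median difference of the 31 genes but not the departure of a gene from it. Relative to that median Mki67 lay 0.83 lower, Kif23 0.93 lower, Ndc80 0.99 lower and Nek2 1.41 lower, while Ube2c lay 0.75 and Racgap1 0.65 above it. These departures are a description and were not tested.

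**Figure D3:**
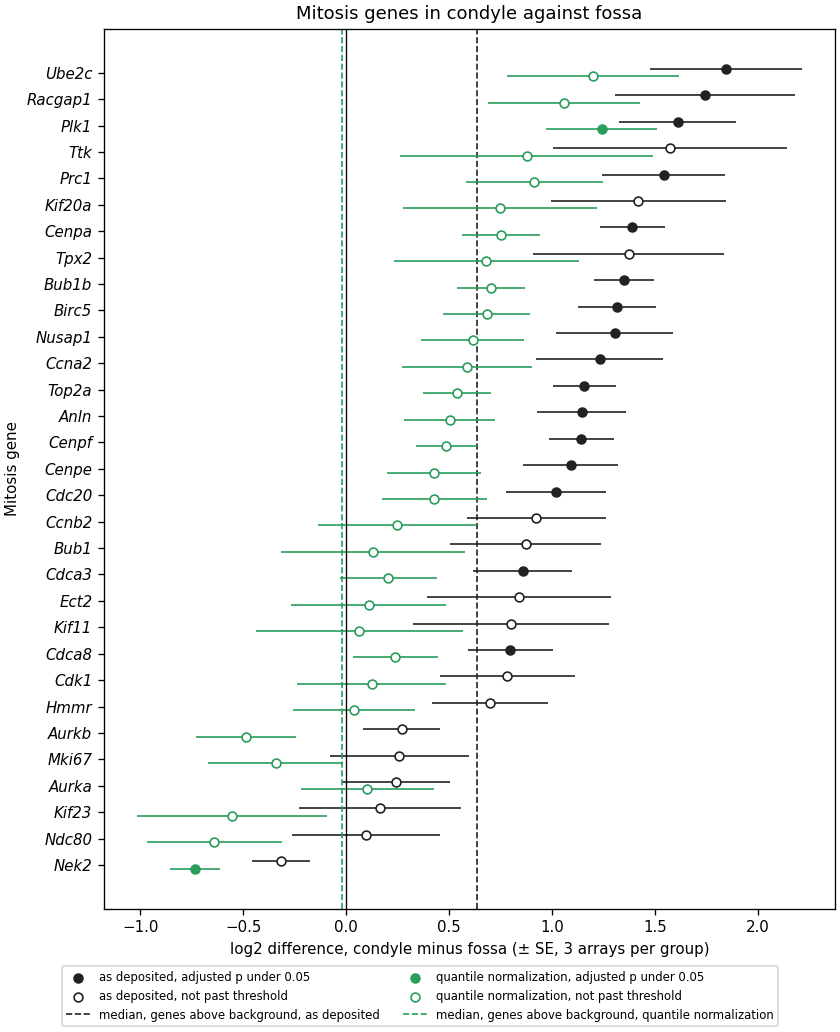
Condyle minus fossa log2 difference (± SE from limma, 3 arrays per group) of each of the 31 mitosis genes, as deposited (black) and after quantile normalization (green); filled points have an adjusted p under 0.05 and dashed lines mark the median of 7751 genes above background on all arrays. As deposited 30 of 31 points lie above 0 and 16 are filled, and after quantile normalization 26 lie above 0 and 2 are filled, Plk1 and Nek2. Of the 7751 genes, 6846 lie above 0 as deposited and 3751 after quantile normalization.

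Markers of other cell types were also read between condyle and fossa, and few were called. Of 16 epithelial genes 2 were higher in condyle, a share below the 16.8% of all genes, with a median difference of 1.21. After quantile normalization 1 was higher (3.8% of all genes) and the median was 0.58. Of 7 bone genes 1 was lower in condyle under both scalings (2.13% of all genes as deposited and 2.67% after quantile normalization). Their median was -1.31 as deposited and -1.61 after quantile normalization. For 12 skeletal muscle genes the median was -0.45 as deposited and -1.16 after quantile normalization, and none was called under either scaling. Under both scalings 1 of 13 chondrocyte genes was higher and 1 of 12 endothelial genes lower. Of 11 liver genes 1 was higher as deposited alone. No erythroid, neuronal or leukocyte gene was called. The log2 of the summed liver signal was 9.95, 11.80 and 15.24 on the condyle arrays and 6.97, 6.31 and 15.07 on the fossa arrays. Among the epithelial genes Cldn4 was at background in all 3 groups, Grhl2 in fossa and whole body, and Cldn3 in fossa. The log2 of the summed epithelial signal was 12.55, 13.95 and 13.21 on condyle arrays 1, 2 and 3, 13.80, 9.15 and 13.03 on the fossa arrays and 12.14 to 12.28 in whole body. The mean of the 31 mitosis genes was 7.63, 7.80 and 7.40 on the condyle arrays, 6.85, 6.44 and 6.58 on the fossa arrays and 7.16, 7.04 and 7.25 on the whole body arrays. Condyle array 2 and fossa array 1 had the most epithelial signal and the highest mean of mitosis genes of their group. They also had the lowest summed signal of bone, skeletal muscle, neuronal, leukocyte and erythroid markers in their group. Chondrocyte, liver and endothelial markers were not lowest on both of these arrays. Fossa array 1 had more epithelial signal than condyle arrays 1 and 3 and a lower mean of mitosis genes as deposited. After quantile normalization the same means were 7.32, 7.52 and 7.09 in condyle, 7.28, 6.70 and 6.89 in fossa and 6.98 to 7.19 in whole body, and fossa array 1 then lay among the condyle arrays. The log2 of the summed bone signal was 14.53, 12.33 and 12.38 on the condyle arrays and 12.85, 14.69 and 14.24 on the fossa arrays. In whole body it was 10.88 to 11.21. The part of these cell types in the difference was not tested. The count of genes called was 9 without condyle array 1, 8 without condyle array 2 and 10 without fossa array 3.

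**Figure D4:**
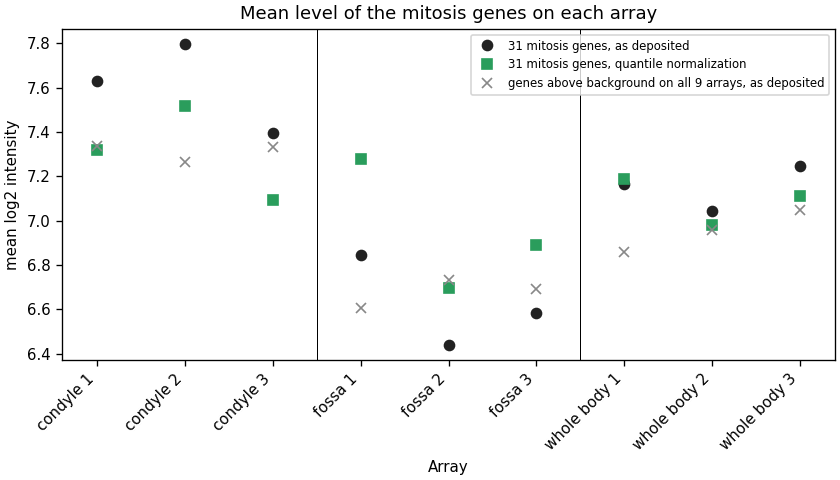
Mean log2 intensity on each of the 9 arrays of the 31 mitosis genes as deposited (circles) and after quantile normalization (squares), and of the genes above background on all arrays (crosses). The condyle circles (7.40 to 7.80) lie above the whole body circles (7.04 to 7.25) and these above the fossa circles (6.44 to 6.85), while after quantile normalization condyle and fossa overlap.

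Set against whole body, the condyle shows how its mitotic transcripts stand beside the average of the embryo. As deposited 7 of the 31 were higher (limma, 22.6%), against 9.34% of all genes and 17.4% of the 7751 above background on every array. The share of the 31 thus lay closer to that of the genes above background. None of the 31 was lower (3.84% and 5.47%). At an unadjusted p under 0.05 (limma) 10 of the 31 were higher and 2 lower. At that level 3206 of all genes were higher and 1906 lower, and 2445 and 852 of the 7751. The median was 0.45, against -0.03 over all genes and 0.36 over those above background. The 7 were Aurkb, Kif20a, Prc1, Cenpf, Cenpa, Top2a and Bub1b. After quantile normalization only Cenpf was called (0.67 ± 0.15, adjusted p = 0.0381, limma), and the median was 0.19. There 4.53% of all genes were higher and 4.44% lower, and 8.18% and 7.69% of those above background. All condyle arrays lay above all whole body arrays in 11 of the 31 (19.8% of all genes) and below them in 2 (33.4%) as deposited, and in 9 (20.4%) and 3 (16.9%) after quantile normalization. Of the 7751 genes above background, 2731 lay above and 1070 below as deposited, and 1824 and 1699 after quantile normalization. Aurka is among the 11 and the 9, with all whole body arrays at background. Scaling to the 75th percentile of each array gave 3 genes higher and 4 lower.

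Kif20a read 4.72, 6.21 and 4.98 in condyle, 4.39, 3.30 and 3.96 in fossa and 3.18, 3.18 and 2.91 in whole body. Of the whole body arrays 2 were above background, so Kif20a was at least 4.17-fold higher in condyle, with a measured log2 difference of 2.21 ± 0.43 (adjusted p = 0.0176; 1.93 ± 0.47 with adjusted p = 0.0507 after quantile normalization). Aurkb read 5.80, 5.67 and 5.30 in condyle, 5.28, 5.37 and 5.31 in fossa and 4.49, 4.08 and 3.84 in whole body. It was higher in condyle by 1.45 ± 0.19 (adjusted p = 0.00432; 1.00 ± 0.24 with adjusted p = 0.0503 after quantile normalization). Prc1 was higher by 1.33 ± 0.30 (adjusted p = 0.0294), Cenpf by 0.83 ± 0.16 (adjusted p = 0.0171), Cenpa by 0.66 ± 0.16 (adjusted p = 0.0355), Top2a by 0.65 ± 0.15 (adjusted p = 0.0358) and Bub1b by 0.64 ± 0.15 (adjusted p = 0.031). Racgap1 differed by 1.56 ± 0.44 (adjusted p = 0.0593) and Cdca8 by 0.78 ± 0.21 (adjusted p = 0.0503). The largest negative differences were -0.86 ± 0.34 for Mki67 (adjusted p = 0.149), whose whole body arrays read 11.87, 11.74 and 11.81, above all 6 joint arrays, and -0.85 ± 0.36 for Ndc80 (adjusted p = 0.176). The count of 7 was 4 without condyle array 1, 3 without condyle array 2, 2 without whole body array 2 and 4 without whole body array 3. Aurkb was called in each of these.

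The fossa was set against the same arrays. As deposited 6 of the 31 were lower (19.4%), against 15.6% of all genes and 20.7% of those above background, so the share was near both. Aurkb alone was higher (3.99% and 5.34%). The median was -0.65, against -0.11 over all genes and -0.27 over those above background. After quantile normalization it was -0.15, with 2 genes lower (9.02% of all genes) and 2 higher (8.03% of all genes). All fossa arrays lay below all whole body arrays in 13 of the 31 (31.1% of all genes) and above them in 2 (11.1%) as deposited, and in 5 (21.7%) and 4 (20.7%) after quantile normalization. Of the 7751 genes above background, 2495 lay below and 896 above as deposited, and 1430 and 1732 after quantile normalization.

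Nusap1 was lower in fossa, with a log2 difference of -1.62 ± 0.28 (adjusted p = 0.00861), and so was Anln, with -1.53 ± 0.22 (adjusted p = 0.00396). Both calls held after quantile normalization, at -1.17 ± 0.25 (adjusted p = 0.0221) and -1.02 ± 0.22 (adjusted p = 0.0233). As deposited the other 4 lower genes were Ube2c at -1.47 ± 0.37 (adjusted p = 0.0321), Birc5 at -1.04 ± 0.19 (adjusted p = 0.0103), Cenpa at -0.73 ± 0.16 (adjusted p = 0.0193) and Bub1b at -0.71 ± 0.15 (adjusted p = 0.0162). After quantile normalization these calls were lost, with -1.11 for Ube2c (adjusted p = 0.12), -0.56 for Birc5 (adjusted p = 0.116), -0.30 for Cenpa (adjusted p = 0.336) and -0.28 for Bub1b (adjusted p = 0.307). Ect2 differed by -1.38 ± 0.45 (adjusted p = 0.0737) and Mki67 by -1.12 ± 0.34 (adjusted p = 0.0581). Aurkb was the 1 gene higher in fossa, by 1.18 ± 0.19 (adjusted p = 0.00601), and the quantile-normalized difference was 1.49 ± 0.24 (adjusted p = 0.00864). There Nek2 was called as well (0.72 ± 0.12, adjusted p = 0.00917). Without fossa array 1, 11 genes were called, 9 of them lower. The comparisons with whole body share its arrays, so that their values are not independent.

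**Figure D5:**
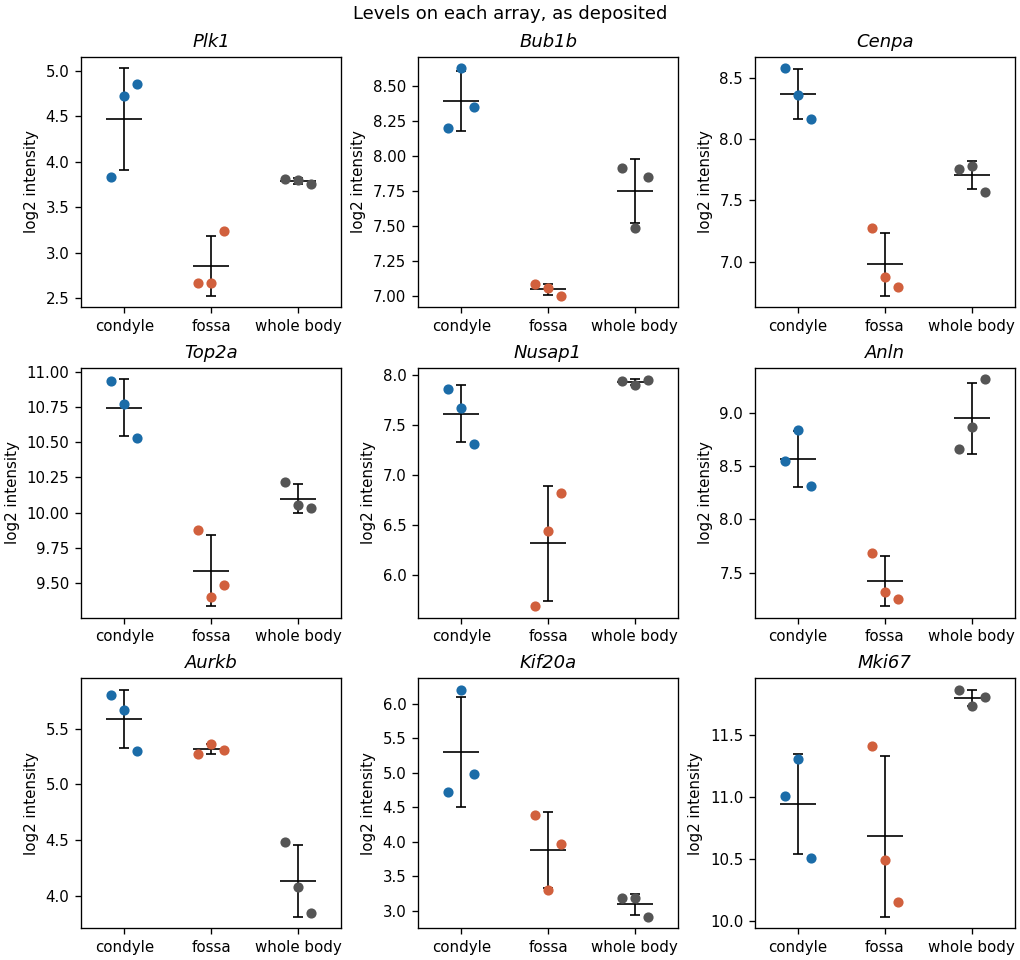
Log2 intensity as deposited on each array for 9 mitosis genes, with points for arrays and bars for the mean ± SD of 3 arrays. Plk1, Bub1b, Cenpa and Top2a run from condyle over whole body to fossa, Nusap1 and Anln are low in fossa alone, Aurkb and Kif20a are lowest in whole body, and Mki67 is highest there.

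Other probe sets of the same genes were read in a fit across all probe sets. Of 39 that did not represent their gene 14 were at background on all 9 arrays, and 12 were above it on at least 6. All 12 of these had a positive difference between condyle and fossa and 5 were called, both further probe sets of Cdca8 (2.00 ± 0.39 with adjusted p = 0.0164, and 1.38 ± 0.24 with adjusted p = 0.0117) and those of Ccna2 (1.39 ± 0.32, adjusted p = 0.0301), Prc1 (1.39 ± 0.30, adjusted p = 0.0241) and Bub1b (1.05 ± 0.27, adjusted p = 0.0413). After quantile normalization the smallest adjusted p among the 5 was 0.0982. Against whole body, 9 of the 12 had a positive difference in condyle and 3 a negative one. Those 3 were of Top2a, Ccna2 and Kif23, whose representing probe sets had positive differences. In fossa against whole body 11 of the 12 had a negative difference. There 2 were called lower as deposited, of Ccna2 (-1.57 ± 0.32, adjusted p = 0.0187) and Top2a (-0.64 ± 0.14, adjusted p = 0.0246), and neither after quantile normalization. For Aurkb the 2 probe sets differed on condyle against fossa. Its dimmer one read 5.32, 5.45 and 4.63 in condyle, 3.46, 3.60 and 3.39 in fossa and 2.95, 2.91 and 2.92 in whole body, with all whole body arrays and 1 fossa array at background. It put condyle above fossa, by a measured 1.65 ± 0.20 (adjusted p = 0.00326), where the brighter one gave 0.27. After quantile normalization it gave 1.05 (adjusted p = 0.0172). Between fossa and whole body the dimmer one gave a measured 0.56 ± 0.20 (adjusted p = 0.109), not called as deposited. After quantile normalization that difference was 0.87 (adjusted p = 0.0264). For 6 genes (Nek2, Aurkb, Cdca8, Bub1b, Cdc20 and Prc1) the representing probe set carries the suffix _s_at or _x_at, which Affymetrix gives to sets that can match more than 1 transcript, and their levels are uncertain to that extent. Cenpa, Cenpf and Cdca3 have 2 further probe sets each, all at background on all 9 arrays. Taking the median of a gene's probe sets in place of the brightest therefore read background for these 3, and gave a difference between condyle and fossa of -0.31 for Cenpa (adjusted p = 0.0269), -0.26 for Cenpf (adjusted p = 0.217) and -0.053 for Cdca3 (adjusted p = 0.412). For Top2a it gave 0.41 between condyle and fossa (adjusted p = 0.0944) and -0.23 between condyle and whole body (adjusted p = 0.329), from a probe set above background on 8 arrays.

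Companion lists from the same programme were read beside the members. Of 89 measured other mitosis genes 29 were higher and 1 lower in condyle than in fossa, with a median of 0.68 (0.05 after quantile normalization, with 6 higher and 1 lower). Over all genes 16.8% were higher and 2.13% lower as deposited, and 3.8% and 2.67% after quantile normalization. Sgo2a, a shugoshin that shields centromeric cohesin, was at least 4.77-fold higher (adjusted p = 0.000467) and Wee1, the kinase that holds Cdk1 inactive, was higher by 2.12 ± 0.22 (adjusted p = 0.00185). Cdc23 and Ncapg2, of the anaphase-promoting complex and condensin II, were higher by 1.93 ± 0.35 and 1.83 ± 0.31. Against whole body 16 were higher and 7 lower in condyle (9.34% and 3.84% of all genes), and 9 and 8 after quantile normalization. There Kif18b, a kinesin of microtubule ends, was at least 5.23-fold higher (adjusted p = 1.05e-05) and also called after quantile normalization (adjusted p = 0.000151). In fossa 6 were higher and 27 lower than in whole body (3.99% and 15.6% of all genes), and 9 and 12 after quantile normalization. Among the lower was Anapc10, a subunit of the anaphase-promoting complex, at -2.52 ± 0.19 (adjusted p = 0.000339).

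Of 23 regulators of the mitotic programme 10 were higher and 1 lower in condyle than in fossa (16.8% and 2.13% of all genes), with a median of 0.76. After quantile normalization 3 were higher and 1 lower, with a median of 0.18. Mybl2, which encodes the B-Myb partner of MuvB, was at least 2.98-fold higher in condyle (adjusted p = 0.00604; 0.0396 after quantile normalization) and was above background on 1 fossa array. Tfdp1, a partner of E2F factors, showed a difference of 1.57 ± 0.25 (adjusted p = 0.00758), which was also called after quantile normalization (adjusted p = 0.0461). Against whole body 2 were higher and 3 lower in condyle (9.34% and 3.84% of all genes; 1 and 3 after quantile normalization). In fossa 1 was higher and 9 lower (3.99% and 15.6% of all genes; 2 and 6 after quantile normalization). Tfdp2, another E2F partner, was lower in condyle, at -3.66 ± 0.47 (adjusted p = 0.00413), and at least 30.2-fold lower in fossa. E2f2 was lower in both, at -1.97 ± 0.22 in condyle (adjusted p = 0.00272) and -2.52 ± 0.22 in fossa (adjusted p = 0.000652). Erythroid markers also differed here: 10 of 14 were lower in condyle and 11 in fossa than in whole body (3.84% and 15.6% of all genes). Their part in these values was not tested.

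DNA replication genes precede mitosis in the cycle. Of 45 measured 26 were higher in condyle than in fossa (median 0.90; 16.8% of all genes), and 5 after quantile normalization (median 0.27; 3.8% of all genes). Mcm3, of the replicative helicase, and Mcm10 were higher by 1.79 ± 0.12 (adjusted p = 0.000519) and 1.78 ± 0.13 (adjusted p = 0.00068). Both calls held after quantile normalization (adjusted p = 0.00837 and 0.0052). In condyle 9 were higher and 5 lower than in whole body (9.34% and 3.84% of all genes), and 5 and 5 after quantile normalization. In fossa 1 was higher and 22 lower than in whole body (3.99% and 15.6% of all genes), with a median of -0.82, and 1 and 12 after quantile normalization, with a median of -0.47.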

How the data were processed

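RNA of 9 samples was hybridised to Affymetrix mouse arrays. The deposited table holds linear-scale intensities, judged from its values (3.25 to 67158.9). Per the submitters' processing notes limma was used, without version or role; background correction, normalization and probe summary by the authors are not given in the sources used here. Values were converted to log2. The platform annotation gave 1 gene symbol to 34945 probe sets, several to 932 and none to 9160, beside 64 controls; symbols were checked against a RefSeq table of GRCm38.p6. The brightest probe set by mean stood for each gene. Each of 3 contrasts was tested with limma version 3.58.1 (R version 4.3.3) in 1 fit of all 9 arrays and 3 groups, with adjustment over 18193 genes. The fit was tested on simulated data without a shift of scale between arrays. It called 48 of 100 genes changed by a log2 of 1, 79 of 100 changed by 2, and 6 unchanged genes. Folds are "at least" where the dimmer group had an array at background, its level there being the higher of limit and value.

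Members and lists were chosen with earlier results of these data known. Values by array are printed for 12 members called between condyle and fossa, those with the smallest adjusted p, and for Aurkb, Kif20a, Mki67 and Nek2, chosen after their values were seen. Of each companion list up to 4 genes with the largest absolute difference per contrast could be named. Alternatives were other scalings, filters, probe set rules, priors, a replicate block and leaving out each array. The number of arrays limits the precision.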

Additional observations from a re-analysis of the deposited data

Results flagged for a closer look

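In 4 genes all condyle arrays lay above and all fossa arrays below the whole body arrays, with a tested difference between condyle and fossa (limma, adjusted over all genes). Plk1 was above background on 1 fossa array, so its differences from fossa are bounds: condyle was at least 2.38-fold higher than fossa (adjusted p = 0.0108; measured difference 1.61), and whole body at least 1.49-fold (adjusted p = 0.06; measured difference of fossa -0.93). Condyle differed from whole body by 0.68. Cenpa differed by 0.66 and -0.73, and by 1.39 between them (adjusted p = 0.00251). Bub1b differed by 0.64 and -0.71, and by 1.35 between them (adjusted p = 0.00216). Top2a differed by 0.65 and -0.51, and by 1.16 between them (adjusted p = 0.00427). After quantile normalization the difference between condyle and fossa was called for Plk1 alone. There none of the 4 had all condyle arrays above and all fossa arrays below the whole body arrays. The share of all genes with this order was not counted.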

How the results depend on the processing

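Between condyle and fossa the 16 genes called became 2 after quantile normalization, 5 after scaling to the 75th percentile (4 higher, 1 lower), 0 after quantile normalization without genes at background and 10 with a common floor, and the median of 1.09 became 0.43, 0.43 and 0.43 under the first 3. Where 0 passed, 10 genes were higher and 1 lower at an unadjusted p under 0.05 (limma). The share of all genes at that level was not counted for this setting. Scaling to the 75th percentile moved the median difference of all genes between condyle and fossa from 0.21 to -0.45. Between condyle and whole body the 7 called became 1, 7 (3 higher, 4 lower) and 4, and 4 with the median of each gene's probe sets; the median difference of 0.45 became 0.0502 after scaling to the 75th percentile and 0.13 with the median of probe sets. Between fossa and whole body the 7 called became 4 under each of the first 3 scalings, and the median of -0.65 became -0.15 after quantile normalization, with or without genes at background. The median of probe sets, which takes in probe sets at background, turned the sign of called differences for Cenpa (-0.069 in condyle and 0.24 in fossa against whole body, -0.31 between them), Cenpf (-0.047 in condyle against whole body and -0.26 against fossa), Top2a (-0.23 in condyle against whole body) and Cdca3 (-0.053 between condyle and fossa). Differences from whole body that were not called changed sign too. In condyle they were those of Tpx2 (-0.018), Kif23 (-0.31), Hmmr (0.53) and Cdca3 (-0.036). In fossa they were those of Cenpf (0.21), Kif23 (-0.33) and Cdca3 (0.017). For Top2a and Kif23 the median fell on a probe set above background on 8 and 6 arrays. Leaving out 1 array gave 8 to 17 genes called between condyle and fossa (median 0.97 to 1.25), 2 to 8 between condyle and whole body (0.34 to 0.58) and 5 to 11 between fossa and whole body (-0.73 to -0.42). Same-numbered arrays were not treated as paired in the main fit, since the labels do not name the embryos. Of 9 such pairs 1 correlated above 0.1 (range -0.44 to 0.15), and an array correlated best with its own number in 8 of 18 cases. These correlations are of deviations from means of 3 arrays, so they cannot show whether embryos were shared. With the replicate number as a block 11, 5 and 6 genes were called in the 3 comparisons. The cause of these changes was not tested.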

Other observations

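Single arrays departed from their group in some mitosis genes and not in others. Among the whole body arrays, number 2 was lowest for Tpx2 (5.01, against 6.25 and 6.93) and Racgap1 (5.07, against 5.73 and 6.77), while for Ect2 (7.95, against 6.50 and 7.83) it was highest. Ttk ran from 3.64 to 5.59 on the whole body arrays, the widest range of any mitosis gene within a group (1.95), and Nusap1 from 7.90 to 7.96 on the same arrays. Of the 31 genes 23 lay above their fossa mean on fossa array 1, against 8 on fossa array 2, yet Nusap1 was 0.63 below its fossa mean on array 1. In condyle 22 lay under their group mean on array 3, where Plk1 was 0.39 above its own.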
